A study of Mus musculus with 9 samples.

Results

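The coagulation and fibrinolysis genes are the genes of blood clotting, of its natural brakes and of clot removal, and 36 of them were listed by symbol, with the serpin inhibitors left out. Of these, 35 were measured, by 52 probe sets that the platform annotation pairs with exactly 1 symbol each, out of 17514 genes tested, and Cpb2 was not analysed here. The list held 17 clotting factors and cofactors, 6 anticoagulant genes, 4 genes of plasminogen, its activators and their receptor, 3 other regulators of fibrinolysis, 4 genes of the vitamin K cycle and of the cargo receptor for clotting factors, and the thrombin receptor with fibrinogen-like 1. Liver RNA came from c57Bl/6 mice on a high-fat diet (HFD; 21% fat, 42% of calories from fat; 5 arrays) or on the control diet (4 arrays), and all mice had eaten chow before the study. No other allele or agent is named, and sex, age, duration of feeding and batch are not labelled. Whether every array stands for its own animal is not stated either, and the p-values therefore cover the spread among arrays, some of which may be technical.

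Clotting is a chain of proteases that ends in thrombin, which cuts soluble fibrinogen into fibrin. The hepatocyte makes most of these proteins and secretes them into plasma, while von Willebrand factor, factor VIII, thrombomodulin and tissue factor pathway inhibitor come largely from endothelial cells. The protein C system and tissue factor pathway inhibitor hold the chain in check, and plasmin, made from plasminogen by its activators, dissolves the clot. Several clotting and anticoagulant proteins work only after vitamin K dependent carboxylation of their glutamate residues.

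Values are log2 differences from a baseline particular to each probe set, and they show differences between the diets but no levels. Differences are HFD minus control on this log2 scale, with the standard error (SE) of the limma fit, and a gene is said to have risen or fallen where its Benjamini-Hochberg adjusted p over all 17514 genes was below 0.05. HFD replicates 3 and 5 stood apart from the other arrays. The spread (SD) over all probe sets was 0.267 in HFD replicate 3 and 0.335 in HFD replicate 5, against 0.221 to 0.245 in the other 7 arrays. For the beta-actin control probe sets, the value at the 3′ end minus that at the 5′ end was 0.77 in HFD replicate 3 and 1.12 in HFD replicate 5, against -0.45 to 0.20 in the others. HFD replicate 5, the array of widest spread, held the lowest of the 9 values for 16 of the 35 genes. The share over all genes was not counted. Several counts and differences are therefore also given without this pair of arrays.

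Of the liver transcripts of the clotting system, 2 passed the threshold between the diet groups, a share close to that of all genes. This does not show that the others were equal. Of the 35 genes measured, 1 rose (Lman1) and 1 fell (Fgl1), against 5.24% of all genes tested that passed in either direction (3.37% higher and 1.87% lower), and the counts were again 1 and 1 without HFD replicates 3 and 5. At an unadjusted p below 0.05, 3 were higher and 9 lower, against 10.3% and 8.78% of all genes. The arrays of the diet groups did not overlap for 7 of the 35, against 9.82% of all genes. The shares of listed genes that were lower and that did not overlap were thus above those of all genes. All 3 fibrinogen chains, whose values moved side by side over the arrays, were in both counts. Neither count was repeated without HFD replicates 3 and 5. The median difference of the 35 genes was -0.029, and that of all genes was -0.016. For 22 of the 33 genes that did not pass, the 95% interval of the difference lay inside -0.5 to 0.5, which corresponds to 1.41-fold either way. For the others the interval reached past this bound.

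**Figure D1:**
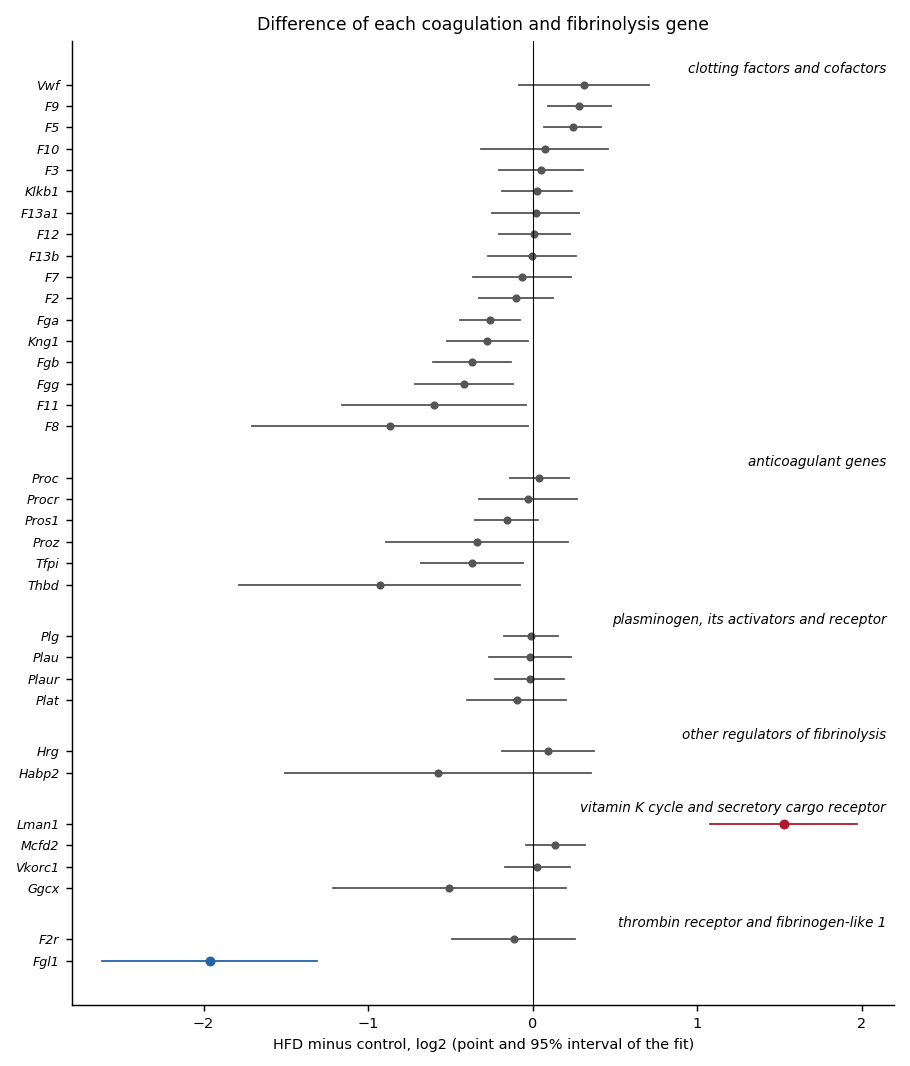
Difference between HFD (5 arrays) and control (4 arrays) of each of the 35 measured genes, on the log2 scale, with the 95% interval of the limma fit, grouped by role. Lman1 (red) and Fgl1 (blue) passed the threshold, and the grey genes, which did not, lay between -0.93 (Thbd) and 0.31 (Vwf).

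Fgl1, fibrinogen-like 1, had the largest difference of the listed genes in either direction. It encodes a protein of the fibrinogen family that hepatocytes secrete, and it is known as an acute phase protein and as a ligand of the immune receptor LAG-3. Its values were -0.39, -0.66, -0.43, -0.34 and -0.79 in HFD replicates 1 to 5, against 1.94, 2.03, 1.46 and 0.34 in control replicates 1 to 4. All HFD arrays lay below all control arrays, and control replicate 4 was the lowest control. Fgl1 averaged -0.52 ± 0.19 in HFD (SD, n = 5) and 1.44 ± 0.78 in control (SD, n = 4), a fall by 1.96 ± 0.30 (SE; 3.90-fold, limma adjusted p = 0.00541). A single probe set measures the gene.

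The fibrinogen chains themselves did not pass. Fga, Fgb and Fgg encode the alpha, beta and gamma chains, which hepatocytes assemble into 1 secreted protein and raise in the acute phase, and the genes are direct neighbours on mouse chromosome 3 in the RefSeq gene table (GRCm38.p6). Their promoters are shown because the values of the chains moved side by side over the arrays. These are the 250 bases before the annotated start of each gene from RefSeq, GRCm38.p6, 5′ to 3′ on the gene's strand, where the capitals mark matches on either strand to GTTAAT (core of the HNF1 site), AGGTCA (core of nuclear receptor sites), TGTTTAC (FOXA core) or TTCNNNGAA (STAT core).
Fga, chr3:83025903-83026152, plus strand: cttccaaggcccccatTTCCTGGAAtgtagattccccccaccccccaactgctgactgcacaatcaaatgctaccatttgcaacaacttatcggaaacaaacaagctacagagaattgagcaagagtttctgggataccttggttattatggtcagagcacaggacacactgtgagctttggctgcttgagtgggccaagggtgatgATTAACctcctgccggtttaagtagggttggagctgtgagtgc
Fgb, chr3:83049864-83050113, minus strand: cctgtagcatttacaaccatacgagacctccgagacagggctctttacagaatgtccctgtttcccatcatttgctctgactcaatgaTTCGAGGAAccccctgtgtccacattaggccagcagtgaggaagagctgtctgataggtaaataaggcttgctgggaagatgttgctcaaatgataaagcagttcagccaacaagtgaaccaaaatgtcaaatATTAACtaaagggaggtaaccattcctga
Fgg, chr3:83007474-83007723, plus strand: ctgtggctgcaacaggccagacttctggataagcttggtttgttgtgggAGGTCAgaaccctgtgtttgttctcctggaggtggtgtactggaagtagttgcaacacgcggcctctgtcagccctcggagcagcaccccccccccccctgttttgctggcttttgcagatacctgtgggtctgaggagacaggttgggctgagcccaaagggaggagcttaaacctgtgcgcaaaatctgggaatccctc

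The windows of Fga and Fgb each held 1 match to GTTAAT, which began 43 bases before the start of Fga and 29 bases before that of Fgb, and 1 match to TTCNNNGAA, at 234 and 162 bases. The window of Fgg held 1 match to AGGTCA, at 201 bases. No matches overlapped each other. Of all 32851 promoter windows of this length in the table, 6.43% held GTTAAT, 7.02% held TTCNNNGAA, 14.0% held AGGTCA and 3.17% held TGTTTAC. Of the 36 listed genes 27 were searched, and 5, 4, 6 and 3 of these held the letters in the same order. Listed genes on chromosome 18 (Lman1 and Proc) were left out of this search, while no chromosome was left out of the 32851 windows. No window was available for Fgl1, Vwf, Kng1, Thbd, Plg, Plat and Plau, which were not searched either. A listed gene counted once if any of its windows held the letters, so the 2 kinds of count are not strictly alike. A match is a description of letters and not a bound site.

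Fga was -0.03, -0.05, -0.22, -0.09 and -0.11 in HFD replicates 1 to 5, against 0.12, 0.13, 0.32 and 0.07 in control replicates 1 to 4. Fgb was 0.01, -0.01, -0.32, -0.01 and -0.36 in the HFD arrays, against 0.13, 0.28, 0.35 and 0.15 in the control arrays. Fgg was -0.01, -0.02, -0.36, 0.01 and -0.63 in the HFD arrays, against 0.18, 0.21, 0.28 and 0.18 in the control arrays. For each chain every HFD array lay below every control array, and HFD replicates 3 and 5 were the lowest of all 9 for each chain. Arrays of the diet groups were apart with HFD lower in 4.20% of all genes. The differences were -0.26 ± 0.08 for Fga (SE, limma adjusted p = 0.110), -0.37 ± 0.11 for Fgb (adjusted p = 0.0805) and -0.42 ± 0.14 for Fgg (adjusted p = 0.115). None passed, and none passed under any alternative. Without HFD replicates 3 and 5 the differences were -0.22, -0.23 and -0.22, smaller by over 1.5 times for Fgb and Fgg.

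**Figure D2:**
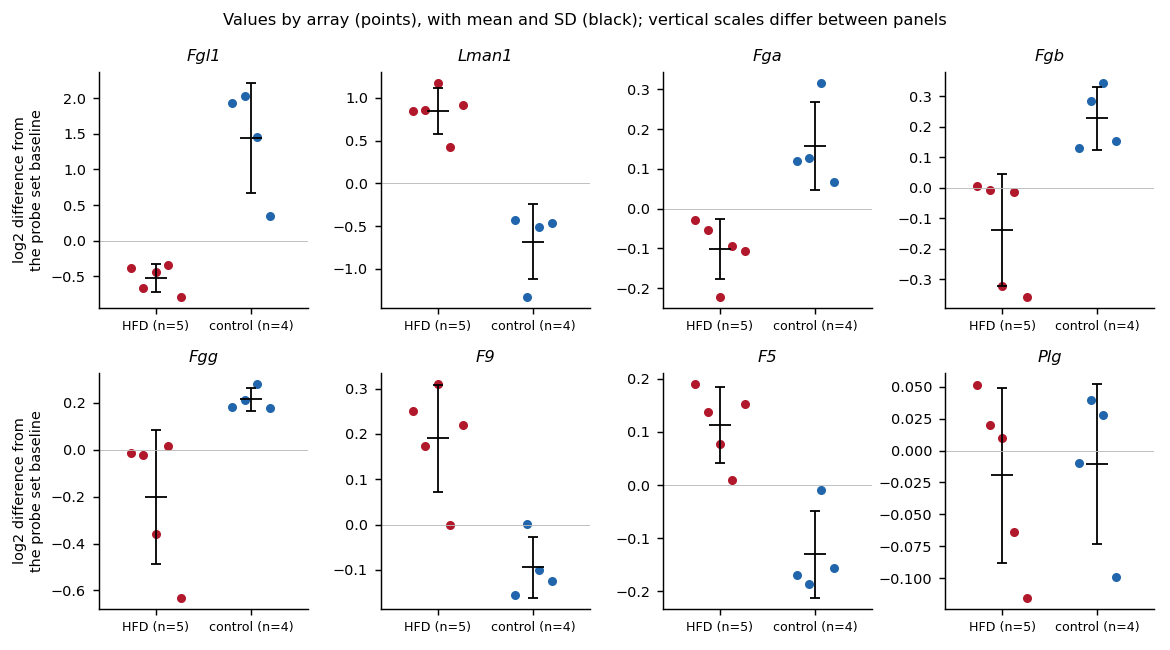
Log2 difference from the probe set baseline in each HFD array (red, left, n = 5) and control array (blue, right, n = 4) for 8 genes, with the mean and SD of each group in black and a vertical scale of its own in each panel. HFD and control arrays do not overlap for Fgl1, Lman1, the fibrinogen chains and F5, overlap through 1 array each for F9, and overlap for Plg.

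The other acute phase genes examined beside Fgl1 and fibrinogen are plasma proteins and their regulators, most of which hepatocytes make more of after inflammatory signals. Of 17 measured, 3 fell and none rose, and their median difference was -0.55, against -0.016 over all genes. Itih3, an inter-alpha-trypsin inhibitor chain, fell by 1.08 ± 0.16 (SE, limma adjusted p = 0.00560). Apcs, serum amyloid P, fell by 1.02 ± 0.16 (adjusted p = 0.00570). Orm1, orosomucoid 1, fell by 0.70 ± 0.17 (adjusted p = 0.0438). Orm1 no longer passed when any 1 array other than control replicate 4 or HFD replicate 4 was left out (highest adjusted p = 0.128 when 1 array was left out), and 5 genes of this list fell without control replicate 4. Without HFD replicates 3 and 5 together, Itih3 and Apcs fell, Orm1 did not pass (adjusted p = 0.145), and Saa4, a serum amyloid A, rose by 1.54 (adjusted p = 0.0434). Over all 9 arrays Saa4 did not pass (1.06, adjusted p = 0.160). Its difference there was 0.57 with probe sets averaged (adjusted p = 0.302) and 0.08 with the probe set of median SD (adjusted p = 0.906). Saa1 and Saa2, also serum amyloid A genes, were lower in HFD over all 9 arrays but did not pass. They differed by -1.90 ± 0.50 (SE, limma adjusted p = 0.0552) and -1.81 ± 0.54 (adjusted p = 0.0900). Of the 17 differences in this list, 13 were below 0 and 4 above.

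None of the 17 clotting factors and cofactors passed in limma, where 5.24% of all genes did. At an unadjusted p below 0.05 there were 8, with 2 higher and 6 lower, against 19.1% of all genes. Their median difference was -0.0047. The 17 ranged from -0.87 for F8 to 0.31 for Vwf.

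Prothrombin, factor VII with tissue factor, factor XII, prekallikrein and factor XIII showed small differences. F2 encodes prothrombin, the precursor of thrombin, and differed by -0.10 ± 0.10 (SE). F7 encodes the protease that tissue factor switches on, and differed by -0.06 ± 0.13. F3 encodes tissue factor itself, which starts clotting after injury, and differed by 0.05 ± 0.12. F12 and Klkb1, which encode factor XII and prekallikrein of the contact system, differed by 0.01 ± 0.10 and 0.03 ± 0.10. F13a1 and F13b encode the subunits of factor XIII, which cross-links fibrin, and differed by 0.02 ± 0.12 and -0.0047 ± 0.12. For each of these 7 genes the 95% interval lay inside -0.5 to 0.5.

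F9 and F5 were the clotting factors with the lowest p among those higher in HFD. F9, the vitamin K dependent protease whose loss causes haemophilia B, was 0.25, 0.17, 0.31, -0.00085 and 0.22 in HFD replicates 1 to 5, against -0.16, 0.00085, -0.10 and -0.12 in control replicates 1 to 4. The groups overlapped only through HFD replicate 4 and control replicate 2. The difference was 0.29 ± 0.09 (SE, limma adjusted p = 0.0885), and without HFD replicate 4 it was 0.33 and passed (adjusted p = 0.0426). F5 encodes factor V, the cofactor of factor X on the way to thrombin. It was 0.19, 0.14, 0.08, 0.01 and 0.15 in HFD replicates 1 to 5, against -0.17, -0.19, -0.01 and -0.16 in control replicates 1 to 4. The groups did not overlap, as in 5.62% of all genes with HFD higher. Its difference was 0.24 ± 0.08 (adjusted p = 0.109), and its other probe set gave 0.12 ± 0.09 with overlapping groups.

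F10, the protease that forms thrombin, depended on the probe set. The 3 probe sets gave 0.07 ± 0.17, -0.06 ± 0.14 and -0.36 ± 0.11 (SE, fit over all probe sets), the last with an unadjusted p of 0.0083 and a limma adjusted p = 0.122. In the last, HFD replicates 3 and 5 were lowest, at -0.30 and -0.48, while in the first they were highest, at 0.37 and 0.54. Kng1, kininogen of the contact system, gave -0.28 ± 0.11 in its more variable probe set and -0.03 ± 0.08 in the other. Kng2, its neighbour, is a close relative, and cross-hybridisation between them was not tested.

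F8 encodes factor VIII, the cofactor of factor IX that is lost in haemophilia A, and in liver it is made by sinusoidal endothelial cells. Its values were 0.05, -0.72, -0.66, 0.37 and -1.78 in HFD replicates 1 to 5, against 0.35, 0.91, -0.05 and 0.07 in control replicates 1 to 4. The groups overlapped, and the difference was -0.87 ± 0.38 (SE, limma adjusted p = 0.246). The mean of 10 sinusoidal endothelial markers was -0.13, -1.17, -0.82, 0.17 and -1.27 in the same HFD arrays, against 0.65, 0.75, 0.34 and 0.16 in the control arrays. From high to low, the 5 HFD arrays stood in the same order for F8 and for these markers, while control replicates 3 and 4 changed places. Fewer cells of a type and less RNA per cell cannot be told apart in bulk liver, and the part of the endothelial markers in the value of F8 was not tested. Without HFD replicates 3 and 5 the difference of F8 was -0.42.

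**Figure D3:**
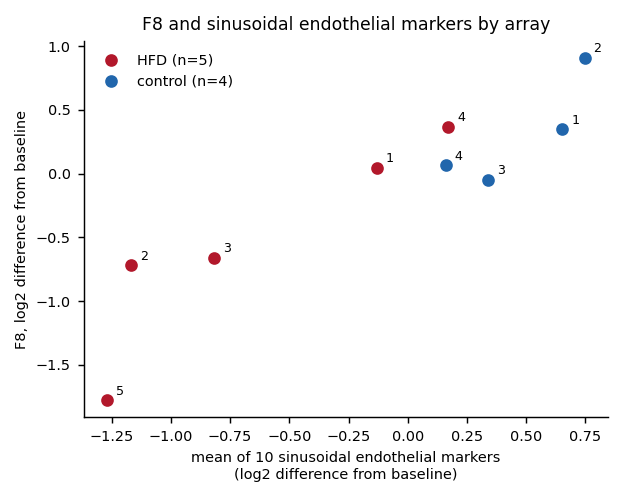
F8 in each array (vertical) against the mean of 10 sinusoidal endothelial markers (horizontal), both as log2 differences from baseline, with replicate numbers beside the points (HFD red, n = 5; control blue, n = 4). HFD replicate 5 is lowest on both axes (-1.78 and -1.27) and control replicate 2 is highest on both (0.91 and 0.75).

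Markers of liver endothelial and Kupffer cells were lower in HFD. Of 10 sinusoidal endothelial markers 3 fell (Fcgr2b, Stab1 and Flt4) and none rose, a count that dropped to 0 on removal of HFD replicate 3 or of any of the control arrays, to 1 on removal of HFD replicate 2 or 5, and stood at 5 on removal of HFD replicate 1 and at 8 on removal of HFD replicate 4. Of 12 Kupffer cell and macrophage markers 9 fell, and this count was 2 on removal of HFD replicate 3 or of control replicate 1, 2 or 3, 4 on removal of HFD replicate 2 and 5 on removal of HFD replicate 1. The same count was 12 on removal of control replicate 4, 10 on removal of HFD replicate 4 and 9 on removal of HFD replicate 5. Without HFD replicates 3 and 5 together, 3 Kupffer markers (Vsig4, Timd4 and Folr2) and none of the sinusoidal markers fell. Their mean ran from -1.32 to 0.14 over the HFD arrays and from 0.17 to 1.39 over the control arrays. Of 12 general and large-vessel endothelial markers none passed in limma (5 lower at an unadjusted p below 0.05), and their mean ran from -0.43 to 0.16 in HFD and from 0.04 to 0.26 in control. Of 5 measured monocyte markers 1 fell, Itgb2, and it lost its call without any 1 array except control replicate 4 or HFD replicate 4. No platelet marker of 10 and no erythroid marker of 5 passed (1 each at an unadjusted p below 0.05). Of 10 stellate cell and fibroblast markers 1 rose and 1 fell, Lrat and Reln, and both depended on single arrays. Of 10 hepatocyte markers 1 rose, Fah, which also lost its call when single arrays were left out. At an unadjusted p below 0.05, 2 hepatocyte markers were higher and 3 lower, and the 10 differences ran from -1.41 to 0.59. Centring hides which markers are near background, and the labelled tissue could not be checked by marker levels.

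Vwf, von Willebrand factor of large-vessel endothelium and platelets, did not share the direction of F8. It was -0.30, -0.04, 0.60, 0.24 and 0.48 in HFD replicates 1 to 5, against 0.04, -0.25, 0.04 and -0.29 in control replicates 1 to 4. HFD replicates 3 and 5 were the highest of the 9. The difference was 0.31 ± 0.18 (SE, limma adjusted p = 0.393), and 0.08 without that pair of arrays.

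Of the 6 anticoagulant genes none passed in limma, where 5.24% of all genes did. At an unadjusted p below 0.05 there were 2 lower, against 8.78% of all genes. Their median difference was -0.25, and 5 of the 6 differences were below 0, as were 9414 of all 17514 genes. Thbd encodes thrombomodulin, the endothelial receptor that turns thrombin towards activating protein C. Thbd was -0.51, -1.02, -0.52, 0.80 and -0.13 in HFD replicates 1 to 5, against -0.38, 0.84, 0.86 and 1.30 in control replicates 1 to 4. The groups overlapped, with control replicate 1 below HFD replicates 4 and 5, and the difference was -0.93 ± 0.39 (SE, limma adjusted p = 0.219).

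Tfpi, tissue factor pathway inhibitor, was the anticoagulant gene whose probe sets pointed the same way throughout. Its 4 probe sets differed by -0.32 ± 0.13, -0.41 ± 0.10, -0.37 ± 0.14 and -0.36 ± 0.10 (SE, fit over all probe sets). The arrays of the groups were apart in the second and the last of these, whose limma adjusted p = 0.0559 and adjusted p = 0.0856 did not pass. The most variable probe set, which stands for the gene, was -0.08, -0.35, -0.61, 0.08 and -0.31 in HFD replicates 1 to 5, against 0.22, 0.21, -0.12 and 0.14 in control replicates 1 to 4, and had an adjusted p = 0.178. With the mean of the probe sets the difference was -0.36 and passed (adjusted p = 0.0445), and with the probe set of median SD it was -0.41 and passed (adjusted p = 0.0423). Without HFD replicates 3 and 5 it was -0.23 (adjusted p = 0.397).

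Proc and Procr, which encode protein C and its endothelial receptor, differed by 0.04 ± 0.08 and -0.03 ± 0.14 (SE). Pros1, protein S, the cofactor of protein C, was 0.0045, -0.14, -0.015, -0.025 and -0.0045 in HFD replicates 1 to 5, against 0.06, 0.06, 0.33 and 0.03 in control replicates 1 to 4. The groups did not overlap, but the difference was small (-0.16 ± 0.09, limma adjusted p = 0.368). Proz, protein Z, a cofactor in the inhibition of factor X, differed by -0.34 ± 0.25, and by 0.05 ± 0.09 in its other probe set. The 7 vitamin K dependent genes of the list (F2, F7, F9, F10, Proc, Pros1 and Proz) had a median difference of -0.065, and none passed (1 at an unadjusted p below 0.05, F9). F7, F10 and Proz are direct neighbours on chromosome 8.

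Plasminogen, its activators and their receptor differed by -0.10 to -0.0093. Plg, plasminogen, was 0.05, 0.02, 0.01, -0.06 and -0.12 in HFD replicates 1 to 5, against -0.01, 0.04, 0.03 and -0.10 in control replicates 1 to 4, and differed by -0.0093 ± 0.08 (SE; 95% interval -0.18 to 0.16). Plat and Plau, the tissue-type and urokinase-type plasminogen activators, differed by -0.10 ± 0.14 and -0.02 ± 0.11, and their other probe sets by 0.07 ± 0.12 and 0.07 ± 0.10. Plaur, the urokinase receptor, differed by -0.02 ± 0.09. None of these 4 genes passed in limma, and none had an unadjusted p below 0.05. Hrg, the plasma protein histidine-rich glycoprotein, which binds plasminogen and heparin, differed by 0.10 ± 0.13. F2r, the thrombin receptor PAR1, differed by -0.11 ± 0.17 and in its other probe set by -0.07 ± 0.13.

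Set side by side, the clotting factors had a median near that of all genes, and the genes that oppose them a lower one. The 17 clotting factors had a median difference of -0.0047 (9 below 0), and the 10 anticoagulant and fibrinolytic genes one of -0.063 (9 below 0). Over all genes it was -0.016, with 9414 of 17514 below 0. The 10 genes were not alike, with a median of -0.25 for the 6 anticoagulant genes and -0.016 for the 4 of plasminogen, its activators and their receptor. Without the fibrinogen chains the other 14 clotting factors had a median of 0.015. None of the 27 genes in both groups passed. Without control replicate 2 the median of the 10 genes was -0.11, and without HFD replicates 3 and 5 it was -0.043.

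Lman1 was the listed gene that rose. LMAN1 and MCFD2 form the receptor that carries factors V and VIII from the endoplasmic reticulum to the Golgi, and loss of either causes combined deficiency of these factors in humans. Lman1 was 0.85, 0.85, 1.18, 0.43 and 0.91 in HFD replicates 1 to 5, against -0.43, -1.33, -0.51 and -0.46 in control replicates 1 to 4. All HFD arrays lay above all control arrays, and control replicate 2 was the lowest. It averaged 0.84 ± 0.27 in HFD (SD, n = 5) and -0.68 ± 0.43 in control (SD, n = 4), a rise of 1.53 ± 0.20 (SE; 2.88-fold, limma adjusted p = 0.00327).

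The size of the Lman1 rise depended on the probe set. Its 5 probe sets differed by 1.53 ± 0.20, 0.59 ± 0.12, 0.42 ± 0.12, 0.19 ± 0.08 and -0.10 ± 0.30 (SE, fit over all probe sets). The first pair passed (limma adjusted p = 0.0037 and adjusted p = 0.0248), and the third did not (adjusted p = 0.0936) although its arrays were apart. In the last, HFD replicates 3 and 5 were low, at -0.43 and -1.19. The mean of the 5 probe sets gave 0.52 ± 0.06 (adjusted p = 0.00099), and the probe set of median SD gave 0.59. The partner Mcfd2, with 1 probe set, differed by 0.14 ± 0.08 (95% interval -0.04 to 0.32, adjusted p = 0.410).

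**Figure D4:**
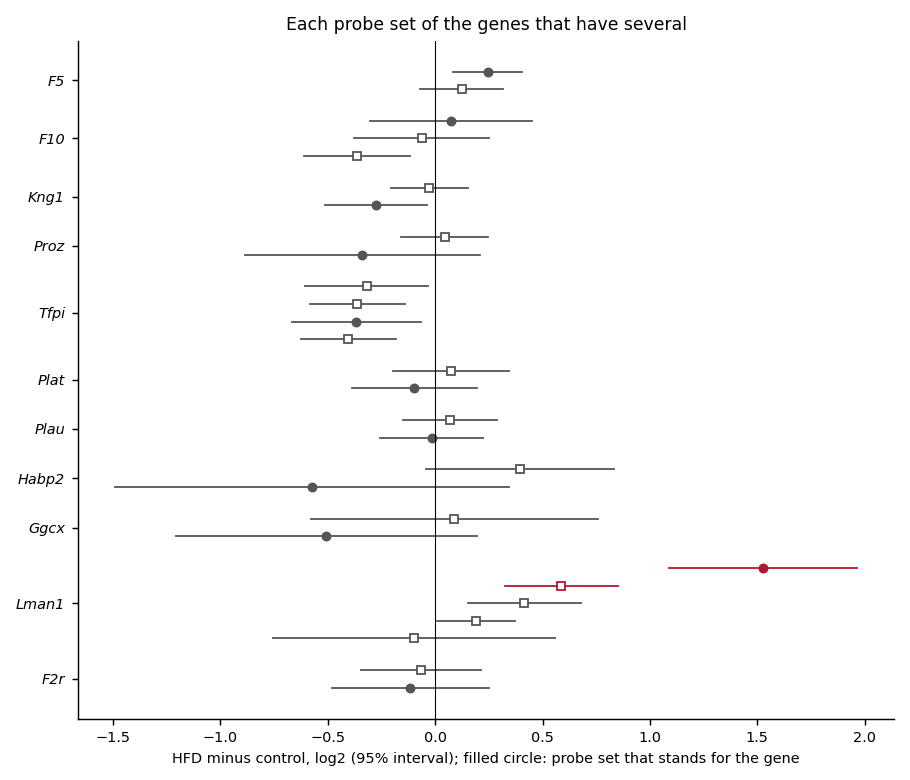
HFD minus control of every probe set of the 11 genes with several, on the log2 scale with 95% intervals (5 HFD and 4 control arrays), where filled circles mark the probe set that stands for the gene and red marks an adjusted p below 0.05. The 4 probe sets of Tfpi lie together, while the 5 of Lman1 run from -0.10 to 1.53 and those of Habp2 and Ggcx lie on both sides of 0.

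Ggcx and Vkorc1 encode the carboxylase that modifies the vitamin K dependent proteins and the reductase that recycles vitamin K. Vkorc1 differed by 0.03 ± 0.09 (SE). Ggcx was 0.22, 0.24, -0.74, -0.06 and -1.42 in HFD replicates 1 to 5, against 0.51, 0.24, 0.06 and -0.19 in control replicates 1 to 4. HFD replicates 3 and 5 were the lowest, and the difference of -0.51 ± 0.32 was -0.02 without them. Its other probe set gave 0.09 ± 0.30.

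F11, Proz and Habp2 had the same arrays at the bottom. F11 encodes factor XI, which switches on factor IX, and was 0.13, 0.10, -1.01, -0.43 and -0.99 in HFD replicates 1 to 5, against 0.09, 0.23, 0.40 and -0.09 in control replicates 1 to 4 (-0.60 ± 0.25, SE, limma adjusted p = 0.225; -0.22 without HFD replicates 3 and 5). Proz was -0.78 and -1.18 in HFD replicates 3 and 5 and -0.30 to 0.13 in the other 7 arrays, and its difference was 0.06 without that pair. Habp2 encodes a plasma protease that can activate factor VII and urokinase, and was -0.02, 0.49, -1.05, 0.35 and -1.80 in HFD replicates 1 to 5, against 0.47, 0.02, 0.22 and -0.05 in control replicates 1 to 4. Its difference was -0.57 ± 0.42, 0.11 without that pair of arrays, and 0.40 ± 0.20 in its other probe set, where HFD replicates 2 and 5 were highest. Klkb1, the neighbour of F11 on chromosome 8, did not share the low values, with -0.07 and 0.07 in HFD replicates 3 and 5. In the control probe sets of Gapdh and pyruvate carboxylase, the 3′ minus the 5′ value was 0.41 and 0.79 in HFD replicate 3 and 0.74 and 1.20 in HFD replicate 5, against -0.28 to -0.05 and -1.13 to -0.12 in the other arrays. The part of RNA quality in these values was not tested.

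**Figure D5:**
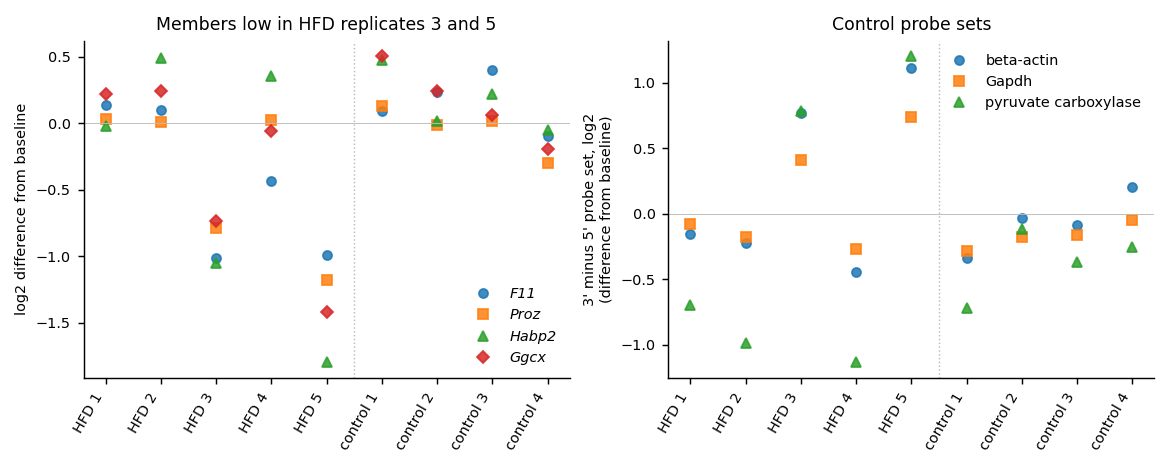
Left, log2 differences from baseline of F11, Proz, Habp2 and Ggcx in each array, and right, the 3′ minus the 5′ control probe set of beta-actin, Gapdh and pyruvate carboxylase in the same arrays (HFD left of the dotted line, n = 5; control right, n = 4). HFD replicates 3 and 5 are lowest in the left panel, at -0.74 to -1.80, and highest in the right panel, at 0.41 to 1.20.

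Among 19 other measured genes of haemostasis 1 rose and none fell, with a median difference of 0.077. Anxa2, annexin A2, which with S100a10 forms a cell surface receptor for plasminogen and its tissue-type activator, was 0.46, 0.78, 1.44, 1.58 and 1.25 in HFD replicates 1 to 5, against -0.46, -0.60, -0.69 and -0.78 in control replicates 1 to 4. The groups were far apart, with a rise of 1.74 ± 0.21 (SE, limma adjusted p = 0.00198), 1.12 with its probe sets averaged and 0.50 in the probe set of median SD, which also passed. Neither S100a10 (0.75 ± 0.29, adjusted p = 0.186) nor Vkorc1l1, a paralog of Vkorc1 (0.32 ± 0.12, adjusted p = 0.178), passed.

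Of 8 measured hepatocyte factors known to act on clotting genes 1 rose and 1 fell. Ppara, a nuclear receptor of fatty acid use, rose by 1.34 ± 0.27 (SE, limma adjusted p = 0.0185), a call lost without control replicate 2 or 4 or HFD replicate 3 (highest adjusted p = 0.0625) and without HFD replicates 3 and 5 together (1.21, adjusted p = 0.0775). Hnf4a, a nuclear receptor that drives many hepatocyte genes including clotting factors, fell by 0.91 ± 0.19 (adjusted p = 0.0216). Its call was lost without control replicate 2, 3 or 4 or HFD replicate 3 (highest adjusted p = 0.0688), after a further quantile normalization (-0.63, adjusted p = 0.179), when probe sets open to cross-hybridisation were dropped (-0.52, adjusted p = 0.306), and with the probe set of median SD (-0.51, adjusted p = 0.311), but not with its probe sets averaged (-0.52, adjusted p = 0.00406). Without HFD replicates 3 and 5 together Hnf4a also passed (-0.61, adjusted p = 0.0092). Onecut1, hepatocyte nuclear factor 6, did not pass, at -1.47 ± 0.45 (adjusted p = 0.0946).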

How the data were processed

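The authors deposited log2 values made by RMA with quantile normalization, in which every probe set had been centred on its median across samples, per the labels and the series' design text. In 92.8% of probe sets a middle pair of the 9 values was mirrored around 0 (tolerance 1e-05), which centring on the median of these 9 arrays would not give. The differences between groups do not depend on this baseline. The log base is not given in the sources used here and was read as log2, which RMA returns. No filter on low signal was possible after centring. Of 41842 probe sets 60 controls were left out of the fit, and 32801 were paired with 1 symbol. The probe set with the largest SD over the 9 arrays stood for a gene, a choice that favours larger differences.

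Differences between HFD and control arrays were fitted with limma 3.58.1 (R 4.3.3; lmFit and eBayes, two-sided, no covariate, Benjamini-Hochberg over 17514 genes). Probe sets of the listed genes were also fitted over all 41782. The fit was tested on simulated data. Replicates are numbered in accession order and pair nothing. The listed genes and the other lists were chosen with earlier results of these data known. The text names every listed gene, and, of the other haemostasis genes, the acute phase genes and the hepatocyte factors, those that passed and the 3 with the lowest p. Saa1 and Saa2 are named beside Saa4. Cell type markers are given by counts. Figures were drawn with matplotlib 3.10.9.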

Additional observations from a re-analysis of the deposited data

Results flagged for a closer look

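In 7 of 70 groups (35 genes in HFD and in control), 1 array lay far from the others of its group by Dixon's 95% critical value, which chance gives in about 1 of 20 groups. Lman1 in control replicate 2 was -1.33, against -0.51 to -0.43 in the other control arrays, and without it the difference was 1.31 (adjusted p = 0.00439). F5 in control replicate 3 was -0.0090, against -0.19 to -0.16. F10 in control replicate 2 was -0.17, against -0.0055 to 0.024. F3 in control replicate 1 was 0.39, against -0.082 to -0.011. Plau in control replicate 3 was 0.36, against -0.072 to -0.040. Pros1 had such an array in both groups, with -0.14 in HFD replicate 2, against -0.025 to 0.0045 in the other HFD arrays, and 0.33 in control replicate 3, against 0.031 to 0.061 in the other control arrays.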

How the results depend on the processing

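Lman1 and Fgl1 passed under all 18 alternatives run for a gene, at 0.52 to 1.63 for Lman1 (highest adjusted p = 0.0163) and -2.33 to -1.77 for Fgl1 (highest adjusted p = 0.0268). Of the 33 other genes, F9 passed under 1 alternative and Tfpi under 2, none of the others passed under any, and 15 changed sign at least once. The count of listed genes higher was 1 to 2 when single arrays were left out, with 2 without HFD replicate 4, and the count lower was 2 with the mean of all probe sets and with the probe set of median SD. Over all genes, 590 were higher and 327 lower. Leaving out single arrays gave 262 to 589 higher (262 without control replicate 2, 318 without control replicate 3, 331 without HFD replicate 3, 333 without control replicate 4) and 123 to 407 lower (123 without control replicate 2, 144 without HFD replicate 3, 156 without control replicate 3, 194 without control replicate 1). Without HFD replicates 3 and 5, an alternative chosen after seeing the data, 179 were lower. With a change of at least 1.5-fold also required, 375 were higher. The median of the anticoagulant and fibrinolytic genes was -0.023 with probe sets averaged and -0.11 to -0.037 with single arrays left out. That of the clotting factors was -0.065 with probe sets averaged and -0.064 to 0.0018 with single arrays left out. Averaging thus reversed the order of the 2 medians. No scaling moved the median of all genes by over 0.1. The causes were not tested. No paired analysis was possible because the labels give no replicate numbers. The number of arrays limits the precision.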
